A study of Mus musculus with 7 samples.

Results

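The genes of glycolysis and glucose use were examined as a set of 38 named genes, listed by symbol as parts of the known pathway. All 38 had a row among the 55484 genes of the count table. They cover glucose uptake, each step from glucose to pyruvate, lactate production and export, the control of pyruvate entry into mitochondria, the pentose phosphate pathway and the alpha subunits of HIF, the hypoxia-inducible transcription factor. RNA-seq libraries of 4 mouse embryonic fibroblast (MEF) and 3 mouse embryonic stem cell (mESC) samples were compared, with no treatment named. The study gives a C57/Bl6 background for all its MEFs and mESCs, in its methods for the chromatin assay. It describes the RNA data as a set the laboratory already had. MEFs are connective tissue cells cultured from embryos, while mESCs are cultured pluripotent cells of the early embryo. The labels name no line, clone, passage or culture medium, and do not say whether libraries of a cell type came from separate cultures or animals. The study's figure captions call its RNA data 3 biological replicates, while 4 MEF libraries are used here. How those replicates relate to the 4 libraries is not stated. The p-values measure the spread between these libraries, which may be technical. The extraction text in the labels describes blood stem cells of young and aged mice and not these cells. A cell sort is described for the chromatin assay of the study but not for the RNA.

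Glycolysis turns glucose into pyruvate in the cytosol and yields ATP and building blocks. Pyruvate is then either reduced to lactate by lactate dehydrogenase and exported, or oxidised in mitochondria by the pyruvate dehydrogenase complex, which the PDK kinases switch off. Most steps are catalysed by one of several isoenzymes from separate genes, which differ in tissue, kinetics and regulation. Pluripotent cells in culture are known for high glycolytic flux, and proliferating fibroblasts also release lactate.

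The MEF libraries held 11441278, 9176467, 7312679 and 6528643 counts and the mESC libraries held 8193825, 8057985 and 7462710. Values below are given in this order, MEFs first, and a library is named by its total. Levels are CPM, counts scaled to a common library size, after TMM scaling, in which 3 counts, the floor of a library, stand for 0.288 to 0.477 CPM. The 10 pluripotency markers were all higher in mESCs, with a summed level of 42.9 to 47.3 CPM in MEFs and 3372 to 3640 in mESCs. The 10 fibroblast markers were all lower in mESCs, at 23091 to 40075 CPM against 159 to 184. Lists for other cells were also read. The 5 endothelial genes summed to 16.9 to 26.1 CPM against 31.6 to 55.2, with Pecam1 alone called higher. The 6 blood genes summed to 10.7 to 33.0 against 66.3 to 74.9, with Laptm5 alone called higher (0.152 to 7.19 against 52.6 to 62.4), Cd53 and Hba-a1 lower, and Hbb-bt at 0 in all mESC libraries. The 5 epithelial genes summed to 106 to 133 against 159.5 to 196, with Cdh1 alone called higher and Krt18 lower. The 9 muscle genes summed to 55.2 to 79.4 CPM in MEFs and 33.4 to 44.0 in mESCs, and the 7 neural genes to 108 to 149 and 65.8 to 73.1, with Elavl3 higher and Tubb3 and Map2 lower. The part of these cells in the results below was not tested. Ribosomal protein genes took 3.67% to 4.28% of counts in MEFs and 5.11% to 5.17% in mESCs, and the 37 rows of mitochondrially encoded genes held 0 counts in every library.

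Single members differed in both directions, and their summed level depended on the scale. They held 0.585% ± 0.0313 of all counts in MEFs (SD, n = 4) and 0.594% ± 0.0433 in mESCs (SD, n = 3), with overlapping libraries. On the TMM scale used for all levels, they summed to 6355.5 ± 209 CPM in MEFs (SD, n = 4; lowest 6052) and 5322 ± 501 CPM in mESCs (SD, n = 3; highest 5889), with every mESC library below. Both sums leave out the near-identical copies of Gapdh and Eno1, described below, which hold most of the counts of these genes. In bulk RNA, fewer cells of a type and less RNA per cell cannot be told apart. Of the 37 members with enough counts to be tested, 22 differed between the cell types, 12 upward and 10 downward in mESCs (quasi-likelihood test of edgeR, Benjamini-Hochberg adjusted over 16580 genes, threshold 0.05). That is 59.5% of the members against a background of 47.9% of all genes tested. By direction, 32.4% of members were higher, where the background is 22.8%, and 27.0% were lower, where it is 25.0%. Past a fold change of 2, 10 members were called, 6 higher and 4 lower, or 27.0% against a background of 24.1%. MEF and mESC libraries did not overlap for 21 of the 37, 10 with mESCs above and 11 with mESCs below, where 52.1% of all genes tested do not overlap. The members' median log2 fold change was -0.02 and that of all genes tested 0.04, while the medians of its absolute size were 1.06 and 0.81. Without TMM scaling, fitted log2 fold changes were 0.28 higher and the members' calls were 13 higher and 8 lower. With the counts of near-identical copies summed into the members, the calls were 12 higher and 11 lower.

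**Figure D1:**
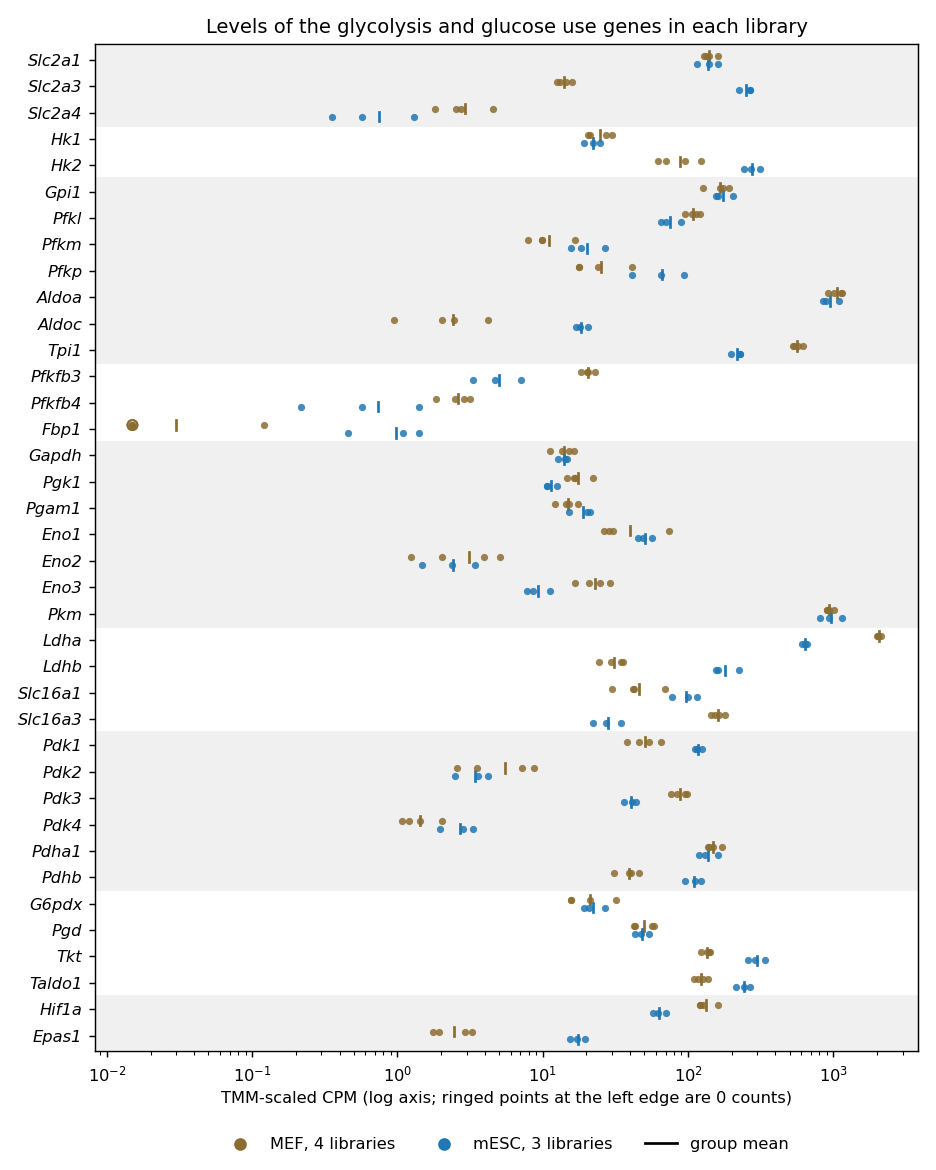
Level of each of the 38 genes in TMM-scaled CPM (log axis), with 1 point per library, MEFs in brown and mESCs in blue, and group means as vertical strokes; shaded bands separate the steps of the pathway and ringed points are libraries with 0 counts. Ldha in MEFs has the highest points, at 1984 to 2130.1 CPM, and Slc2a3 shows the widest gap between the cell types among the tested genes.

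Glucose enters the cell through facilitative transporters, and the one with the most counts was Slc2a1 in MEFs and Slc2a3 in mESCs. Slc2a3, which encodes the high-affinity transporter GLUT3, had 15.8, 13.1, 14.5 and 12.6 CPM in the MEF libraries and 267, 265 and 224 CPM in the mESC libraries. Every mESC library was far above every MEF library, and its log2 fold change of 4.17 (SE, its standard error, 0.161, edgeR adjusted p = 2.65e-08) was the highest among the tested members. Slc2a1, which encodes the widespread transporter GLUT1, had 132, 129.8, 139 and 161 CPM against 115, 160.0 and 139 CPM, with a log2 fold change of -0.02 (SE 0.158, edgeR adjusted p = 0.914). The lowest value was that of an mESC library, and the other two lay within the MEF range. Slc2a1 accordingly took 89.2% ± 1.54 of the counts of the 3 transporter genes in MEFs (SD, n = 4) and 35.3% ± 4.58 in mESCs (SD, n = 3). The exact permutation test over the 7 libraries, two-sided, gave p = 0.0286, the smallest it can give, and 0.0408 after adjustment over the 10 isoenzyme shares tested. Slc2a4, the insulin-responsive transporter GLUT4 of muscle and fat, was scarce, with 1.82, 4.55, 2.74 and 2.54 CPM against 1.30, 0.568 and 0.354. All mESC libraries were below all MEF libraries, on 3 to 12 counts each. Its log2 fold change was -1.95 (SE 0.620, edgeR adjusted p = 0.0239), and the call was lost without the MEF library of 9176467 counts (edgeR adjusted p = 0.0568) and without the mESC libraries of 8057985 (0.0823) and 7462710 (0.0884).

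Hexokinases trap glucose in the cell as glucose 6-phosphate. Hk2, the inducible form, had 95.2, 70.0, 123 and 61.7 CPM in MEFs and 271, 312 and 244 in mESCs. It was higher in each mESC library than in any MEF library, with a log2 fold change of 1.66 (SE 0.227, edgeR adjusted p = 1.54e-04). Hk1, the housekeeping form, had 20.6, 29.8, 21.2 and 27.4 CPM against 22.3, 24.9 and 19.2, which overlapped (log2 fold change -0.16, edgeR adjusted p = 0.581). The share of Hk2 in their summed counts was 76.7% ± 8.21 in MEFs (SD, n = 4) and 92.6% ± 0.166 in mESCs (SD, n = 3), and did not pass the exact permutation test (two-sided p = 0.0571, adjusted 0.0635).

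The steps from glucose 6-phosphate to the triose phosphates held 7 members, of which 3 were higher, 2 lower and 2 not called. Phosphofructokinase, the committed step of glycolysis, is built from liver (Pfkl), muscle (Pfkm) and platelet (Pfkp) type subunits. Pfkp had 17.8, 40.9, 17.7 and 24.2 CPM in MEFs and 40.9, 94.4 and 64.9 in mESCs. One MEF library, of 9176467 counts, reached the level of the lowest mESC library, and the log2 fold change was 1.41 (SE 0.342, edgeR adjusted p = 0.00605). The gene overlaps Pitrm1 on the other strand. Pfkl had 94.7, 113, 106 and 121 CPM against 70.7, 89.1 and 65.0, with no overlap and a log2 fold change of -0.54 (SE 0.166, edgeR adjusted p = 0.0210). The call was lost without the mESC libraries of 8193825 counts (edgeR adjusted p = 0.0737) or 7462710 (0.0855), and without TMM scaling (log2 fold change -0.26, edgeR adjusted p = 0.221). Pfkm had 7.96, 9.95, 9.91 and 16.7 CPM against 26.8, 18.4 and 15.7, where the MEF library of 6528643 counts lay within the mESC range. Its log2 fold change of 0.87 (SE 0.308, edgeR adjusted p = 0.0374) lost its call in 5 of the 7 fits with one library left out: without the MEF libraries of 11441278 (adjusted p = 0.0899), 9176467 (0.0836) or 7312679 (0.0792), and without the mESC libraries of 8193825 (0.177, log2 fold change 0.62) or 8057985 (0.0600). Pfkp took 17.0% ± 5.36 of phosphofructokinase counts in MEFs (SD, n = 4) and 40.3% ± 9.37 in mESCs (SD, n = 3; exact permutation test, two-sided p = 0.0286, adjusted 0.0408).

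Aldolase splits fructose 1,6-bisphosphate. Aldoc, the brain type, had 2.01, 4.19, 2.44 and 0.954 CPM in MEFs and 18.1, 20.3 and 16.9 in mESCs, a log2 fold change of 2.92 (SE 0.406, edgeR adjusted p = 1.70e-04) with wide separation. It stayed a small part of the family, as Aldoa, the type of muscle and most other tissues, had 918, 1134, 1011 and 1146 CPM against 856, 1096 and 895, and its log2 fold change was -0.15 (edgeR adjusted p = 0.386). The share of Aldoa was 99.8% ± 0.117 in MEFs (SD, n = 4) and 98.1% ± 0.136 in mESCs (SD, n = 3; exact permutation test, two-sided p = 0.0286, adjusted 0.0408). Tpi1, which interconverts the 2 triose phosphates, had 536, 619.8, 526 and 569 CPM in MEFs and 229.7, 229 and 198 in mESCs. Its mESC libraries were all lower, with a log2 fold change of -1.36 (SE 0.128, edgeR adjusted p = 1.03e-05). Gpi1, the isomerase between glucose and fructose 6-phosphate, overlapped at 127 to 191 against 156 to 204 CPM (log2 fold change 0.07, edgeR adjusted p = 0.759).

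PFKFB enzymes set the level of fructose 2,6-bisphosphate, an activator of phosphofructokinase, and both members, Pfkfb3 and Pfkfb4, were lower in mESCs. Outside the set, Pfkfb2 was higher (given with the further genes). Pfkfb1, named after its values were seen, was not called, with a mean of 3.46 CPM in MEFs and 3.30 in mESCs (log2 fold change -0.08, edgeR adjusted p = 0.924). Pfkfb3, the form with the strongest kinase activity, had 20.2, 18.2, 23.0 and 20.5 CPM against 4.66, 7.04 and 3.30, with a log2 fold change of -2.03 (SE 0.301, edgeR adjusted p = 2.65e-04). Pfkfb4 had 2.49, 2.88, 1.83 and 3.18 CPM against 0.217, 0.568 and 1.42. All mESC libraries of both genes were below all MEF libraries. The call of Pfkfb4 (log2 fold change -1.81, SE 0.650, edgeR adjusted p = 0.0399) rested on 2 to 12 counts in mESCs. It was lost without the MEF libraries of 11441278 (adjusted p = 0.0544), 9176467 (0.0642) or 6528643 (0.0668), without the mESC libraries of 8193825 (0.128) or 8057985 (0.123), without TMM scaling (0.0729) and without the filter on low counts (0.0613). The share of Pfkfb3 in the pair was 88.7% ± 2.92 in MEFs (SD, n = 4) and 86.0% ± 14.0 in mESCs (SD, n = 3; exact permutation test, two-sided p = 0.886). The difference of -2.62 points turned to 5.39 points without the mESC library of 7462710 counts. Fbp1, the gluconeogenic enzyme that opposes phosphofructokinase, was too low to be tested, with 0, 1, 0 and 0 counts in MEFs and 10, 4 and 12 in mESCs. Its pooled count of 26 against 1 gave a ratio of 31.02 relative to TMM-scaled library size (95% interval 5.10 to 1272, counting error only).

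The lower steps, from glyceraldehyde 3-phosphate to pyruvate, held 7 members, of which 1 was called by its own row. Eno1 was also called lower once the counts of its copies were added (edgeR adjusted p = 0.00171), as described below. Eno3, the muscle enolase, had 28.9, 16.7, 20.9 and 24.6 CPM in MEFs and 7.80, 8.63 and 11.2 in mESCs, with every mESC library below (log2 fold change -1.31, SE 0.268, edgeR adjusted p = 0.00219). Pkm, the pyruvate kinase of most tissues, had 906, 927, 1015 and 909 CPM against 930.5, 1148 and 807, which overlapped, with a log2 fold change of 0.03 (SE 0.133, edgeR adjusted p = 0.858). Counts of transcript ends cannot separate its M1 and M2 splice forms. Pgk1, phosphoglycerate kinase, had 16.8, 22.3, 16.5 and 14.8 CPM against 10.7, 12.6 and 10.7, all lower in mESCs, but its log2 fold change of -0.63 (SE 0.240, edgeR adjusted p = 0.0505) was just short of the threshold. It passed with DESeq2 (adjusted p = 0.0387), with a stricter filter, 10 counts in each library of either cell type (edgeR, 0.0432) and without the MEF library of 6528643 counts (0.0446). Pgam1, phosphoglycerate mutase, had 12.2, 15.1, 14.5 and 17.5 CPM against 21.1, 20.1 and 15.1 (log2 fold change 0.35, edgeR adjusted p = 0.252), and was called without TMM scaling (0.0496). Eno2, the neuronal enolase, overlapped at 1.25 to 5.09 against 1.48 to 3.42 CPM (log2 fold change -0.32, edgeR adjusted p = 0.680).

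Gapdh and Eno1, the glyceraldehyde phosphate dehydrogenase and the main enolase, are read here with a limit. Their own rows were low for such genes, with 13.5, 15.1, 16.5 and 11.3 CPM against 12.8, 14.8 and 14.3 for Gapdh and 74.2, 28.6, 30.5 and 26.4 against 48.9, 45.4 and 56.3 for Eno1. The fitted log2 fold changes were -0.02 (edgeR adjusted p = 0.962) and 0.32 (edgeR adjusted p = 0.469), and that of Eno1 was 0.81 (edgeR adjusted p = 0.00517) without the MEF library of 11441278 counts. Both genes have near-identical copies in the annotation, and these hold most of the counts. Eno1b, which shares 1395 sequences of 50 bases with Eno1, had 1202, 1286, 1633 and 1201 CPM in MEFs and 823, 857 and 652 in mESCs. It was lower in all mESC libraries, with a log2 fold change of -0.77 (SE 0.150, edgeR adjusted p = 0.00153). The row of Eno1 took only 5.81%, 2.18%, 1.83% and 2.15% of the counts of both in MEFs and 5.60%, 5.04% and 7.94% in mESCs. For Gapdh, the copy Gm7336, a processed pseudogene, had 354 to 452 CPM in MEFs and 373 to 475 in mESCs, and Gapdh held 2.44% to 4.09% of the counts of both. With the counts of all copies that share at least 50 such sequences added, Eno1 turned from higher to lower in mESCs (log2 fold change -0.73, SE 0.143, edgeR adjusted p = 0.00171), and Gapdh stayed without a call (0.05, edgeR adjusted p = 0.801). Requiring 100 shared sequences gave -0.73 and 0.07. The rows alone therefore give no direction for enolase 1. The authors kept uniquely mapped reads, and the part of that step in these counts was not tested. Pgk1 and Pgam1 also share sequence with copies, 53.9% and 36.2% of their 50-base sequences. Of those in the last 500 bases, 40.0% and 45.25% are shared. The copies' rows held at most 9.17% and 4.55% of the summed counts. Reads without a unique position are in no row, so these percentages cannot show whether the levels of Pgk1 and Pgam1 are complete. In the enolase family the share of Eno1 by its own row was 58.4% ± 10.1 in MEFs (SD, n = 4) and 81.3% ± 1.75 in mESCs (SD, n = 3; exact permutation test, two-sided p = 0.0571, adjusted 0.0635), a difference of 22.9 points that was 0.46 points with the copies added.

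**Figure D2:**
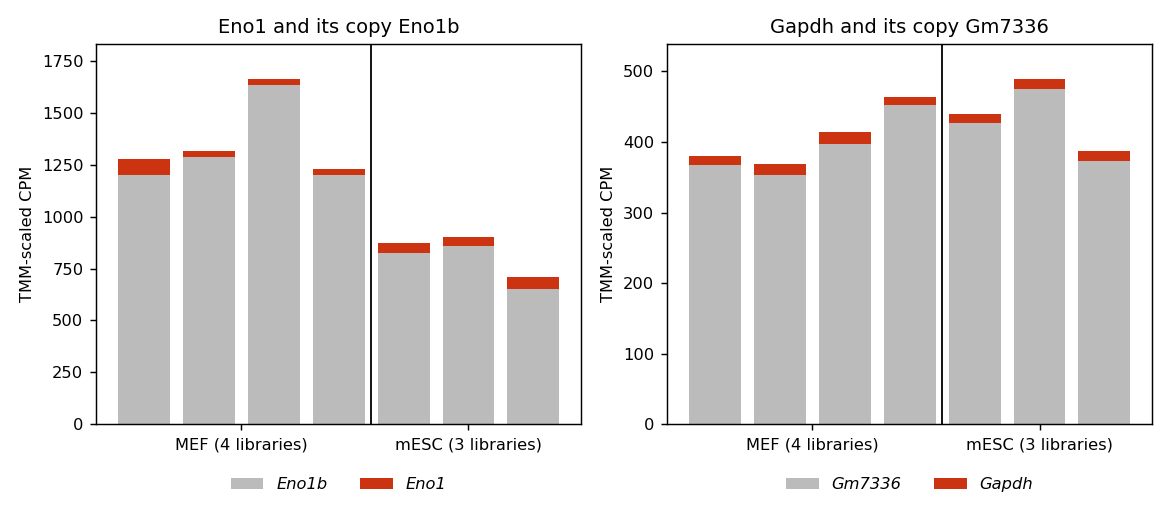
TMM-scaled CPM of Eno1 with its copy Eno1b (left) and of Gapdh with its copy Gm7336 (right), stacked in 1 bar per library, with 4 MEF and 3 mESC libraries on each side of the line. The red part, the gene itself, is at most 7.94% of a bar for Eno1 and 4.09% for Gapdh, and the Eno1 bars are lower in mESCs.

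Lactate production and export differed at all 4 members, and in opposite directions within each pair. Ldha encodes the lactate dehydrogenase subunit of muscle and hypoxic tissue, and had 1984, 2037, 2045 and 2130.1 CPM in MEFs and 639.7, 656 and 605 in mESCs. The mESC libraries were all lower, with narrow spread in both groups, and the log2 fold change was -1.69 (SE 0.101, edgeR adjusted p = 4.11e-07). Ldhb, the subunit of heart and other oxidative tissue, had 29.5, 35.7, 24.2 and 34.7 CPM in MEFs and 159.8, 223 and 155 in mESCs, a log2 fold change of 2.53 (SE 0.196, edgeR adjusted p = 2.52e-06). Each mESC library was above each MEF library. The count ratio of Ldha to Ldhb was thus 57.0 to 84.4 in MEFs and 2.95 to 4.004 in mESCs, and the share of Ldha went from 98.5% ± 0.237 (SD, n = 4) to 78.1% ± 2.97 (SD, n = 3; exact permutation test, two-sided p = 0.0286, adjusted 0.0408). Ldha remained the larger of the pair in every library. It alone took 32.2% ± 0.689 of the counts of the 38 members in MEFs (SD, n = 4) and 11.9% ± 0.703 in mESCs (SD, n = 3). These totals hold Gapdh and Eno1 by their own rows, and with their copies added both shares of Ldha would be smaller.

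Monocarboxylate transporters carry lactate and pyruvate across the plasma membrane. Slc16a3, which encodes MCT4, the low-affinity exporter of highly glycolytic cells, had 153, 180.0, 145 and 164 CPM in MEFs and 22.2, 34.4 and 27.4 in mESCs. It fell in all mESC libraries, with a log2 fold change of -2.52 (SE 0.191, edgeR adjusted p = 2.22e-06). Slc16a1, which encodes the widespread MCT1, had 69.5, 41.8, 42.4 and 29.9 CPM against 100.3, 115 and 77.6, and rose without overlap (log2 fold change 1.08, SE 0.262, edgeR adjusted p = 0.00586). The share of Slc16a1 in the pair was 22.0% ± 6.77 in MEFs (SD, n = 4) and 77.6% ± 4.0 in mESCs (SD, n = 3; exact permutation test, two-sided p = 0.0286, adjusted 0.0408), so that the main transporter by counts differed.

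**Figure D3:**
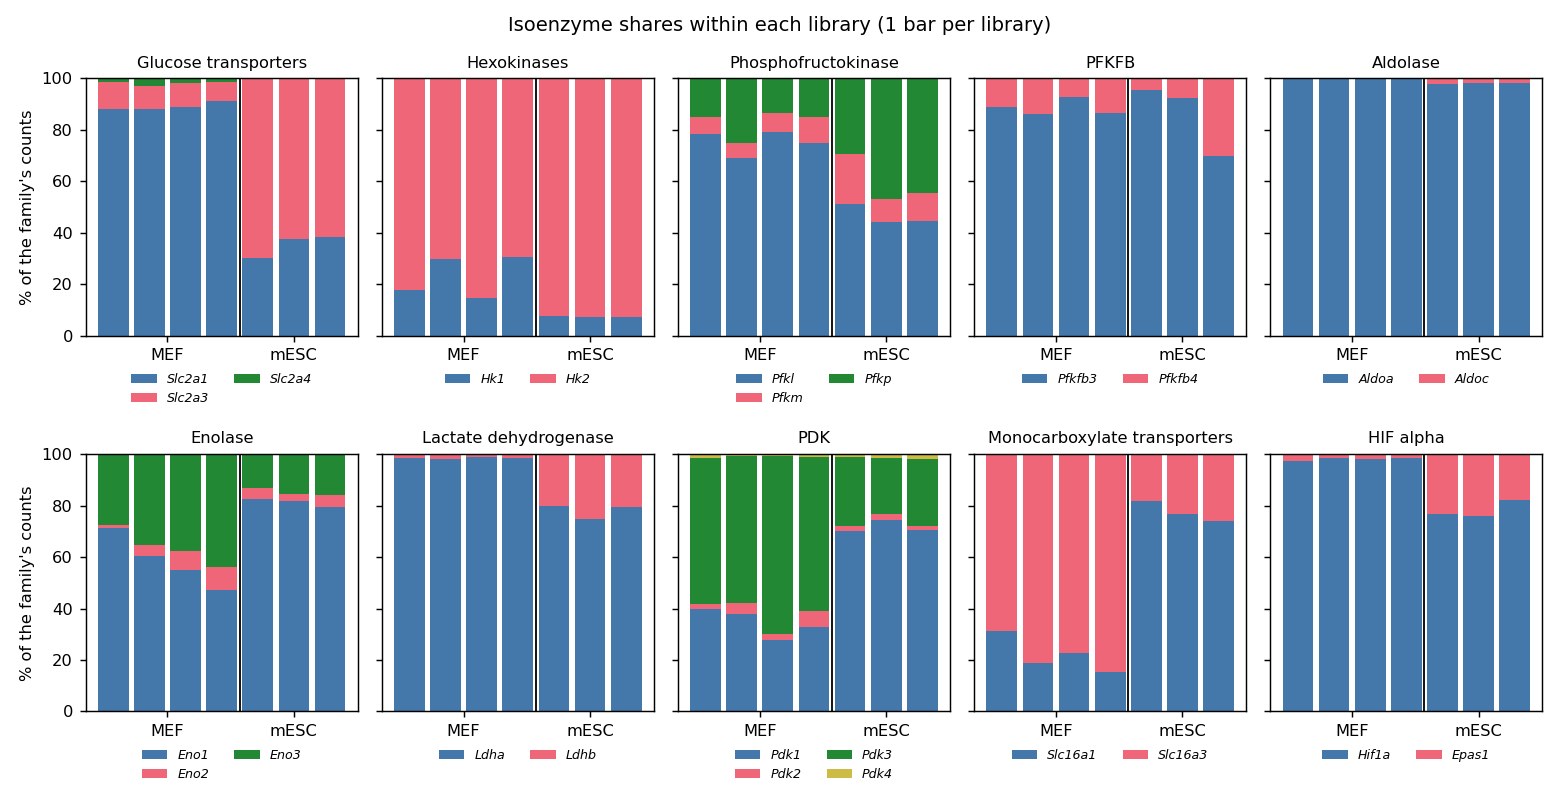
Share of each isoenzyme or paralog in the summed counts of its family (vertical axis, percent), 1 bar per library, for 10 families, with the 4 MEF libraries to the left of the line and the 3 mESC libraries to the right. Bars of the glucose transporters, PDK and monocarboxylate transporters change their main colour between the cell types in every library, while Aldoa stays above 97% in every library. Pfkp and Pfkl are near equal in the mESC libraries of 8057985 counts (46.8% and 44.1%) and 7462710 counts (44.6% and 44.7%), but not in that of 8193825 (29.5% and 51.1%).

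Promoter sequence is shown for Ldha and Ldhb, which moved in opposite directions, and for Hk2 and Pdk1, which were both higher in mESCs, because many glycolytic genes are known targets of HIF. Sequences are the 250 bases before the RefSeq start on GRCm38.p6, written along the transcribed strand, and capitals mark the core of the hypoxia response element, ACGTG or GCGTG, read on either strand (CACGT or CACGC on the other). The core also lies inside the E-box CACGTG. They lie at chr7:46845554-46845803 (Ldha, plus strand), chr6:142507958-142508207 (Ldhb, minus strand), chr6:82774455-82774704 (Hk2, minus strand) and chr2:71872974-71873223 (Pdk1, plus strand). For Ldha and Pdk1 this is the more upstream of 2 RefSeq starts. None overlaps an annotated exon, but the Ldha stretch lies inside the GENCODE gene, which spans chr7:46841475-46855627, and not before its first start.
Ldha: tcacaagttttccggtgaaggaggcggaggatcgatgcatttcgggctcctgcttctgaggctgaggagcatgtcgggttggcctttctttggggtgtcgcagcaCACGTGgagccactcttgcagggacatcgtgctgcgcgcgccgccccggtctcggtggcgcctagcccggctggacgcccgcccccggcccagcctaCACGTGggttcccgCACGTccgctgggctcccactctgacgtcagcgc
Ldhb: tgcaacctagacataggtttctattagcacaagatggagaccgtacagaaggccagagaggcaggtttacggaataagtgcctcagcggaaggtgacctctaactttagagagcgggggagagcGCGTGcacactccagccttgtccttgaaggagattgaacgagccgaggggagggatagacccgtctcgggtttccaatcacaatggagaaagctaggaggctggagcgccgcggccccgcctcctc
Hk2: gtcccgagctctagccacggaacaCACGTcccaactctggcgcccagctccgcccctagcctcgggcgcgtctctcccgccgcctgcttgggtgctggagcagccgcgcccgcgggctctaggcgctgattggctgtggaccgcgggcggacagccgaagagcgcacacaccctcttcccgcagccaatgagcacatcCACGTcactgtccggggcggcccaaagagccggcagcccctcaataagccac
Pdk1: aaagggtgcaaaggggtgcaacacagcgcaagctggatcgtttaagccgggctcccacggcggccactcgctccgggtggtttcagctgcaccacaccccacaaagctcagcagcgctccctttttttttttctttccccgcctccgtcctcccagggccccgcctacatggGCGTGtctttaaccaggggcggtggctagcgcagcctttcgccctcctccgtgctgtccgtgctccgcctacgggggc
The Ldha stretch holds 5 core matches, 4 of them as both strands of 2 E-boxes, that of Hk2 holds 2, and those of Ldhb and Pdk1 hold 1 each. RefSeq windows of 300 bases, 250 before and 50 after the start, were found for 35 of the 38 members, all but Slc2a3, Slc2a4 and Epas1. The core was present in 28 of them (80.0%), against 43.8% of all 32817 windows and 49.2% of 17492 protein-coding genes. The E-box was present in 5 (14.3%), against 7.15% and 7.91%. A match is a description of letters and not a bound site, and it was found in members of both directions.

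Pyruvate enters the citric acid cycle through the pyruvate dehydrogenase complex, which PDK kinases inhibit. The 2 subunit genes of its first enzyme did not move alike. Pdhb, the beta subunit, had 45.8, 39.4, 40.4 and 31.01 CPM in MEFs and 112, 94.98 and 123 in mESCs, all higher (log2 fold change 1.49, SE 0.175, edgeR adjusted p = 5.16e-05). Pdha1, the alpha subunit, had 149, 139.6, 170.4 and 137 CPM against 159.8, 119 and 130.4, which overlapped (log2 fold change -0.13, edgeR adjusted p = 0.536), and it overlaps Map3k15 on the other strand. Among the kinases, Pdk1, a known HIF target, had 53.6, 65.1, 38.3 and 46.1 CPM in MEFs and 115, 125 and 111 in mESCs, and rose without overlap (log2 fold change 1.2, SE 0.188, edgeR adjusted p = 3.71e-04). Pdk3 had 76.0, 97.7, 95.7 and 83.8 CPM against 43.8, 36.1 and 41.2, and fell without overlap (log2 fold change -1.13, SE 0.164, edgeR adjusted p = 2.28e-04). The share of Pdk1 in the 4 kinases was 34.6% ± 5.54 in MEFs (SD, n = 4) and 71.6% ± 2.34 in mESCs (SD, n = 3; exact permutation test, two-sided p = 0.0286, adjusted 0.0408). Pdk2 and Pdk4, the latter known to rise in fasting, were scarce and not called, at 2.59 to 8.75 against 2.48 to 4.20 CPM (edgeR adjusted p = 0.288) and 1.07 to 2.01 against 1.95 to 3.30 CPM (edgeR adjusted p = 0.153).

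The pentose phosphate pathway makes NADPH and ribose from glucose 6-phosphate. Both members of its non-oxidative branch were higher in mESCs. Tkt, transketolase, had 124, 134, 140.4 and 142 CPM in MEFs and 260.1, 291 and 339.5 in mESCs (log2 fold change 1.14, SE 0.139, edgeR adjusted p = 6.68e-05). Taldo1, transaldolase, had 109, 127, 117 and 137 CPM against 243, 267 and 213 (log2 fold change 0.98, SE 0.143, edgeR adjusted p = 2.43e-04). Neither gene's libraries overlapped between the cell types. The NADPH-producing dehydrogenases of the oxidative branch overlapped, with 15.6 to 32.1 against 19.1 to 26.9 CPM for G6pdx (log2 fold change 0.07, edgeR adjusted p = 0.858) and 42.3 to 58.1 against 43.4 to 53.6 CPM for Pgd (log2 fold change -0.06, edgeR adjusted p = 0.818). G6pdx overlaps Ikbkg on the other strand. Of the pathway's genes outside the set, Rpe of the non-oxidative branch was higher (log2 fold change 0.97, edgeR adjusted p = 0.00541) and Rpia was not called (-0.31, edgeR adjusted p = 0.702). In the oxidative branch Pgls was lower (-1.07, edgeR adjusted p = 2.19e-04), as was H6pd, whose libraries overlapped (-1.22, edgeR adjusted p = 0.0272). These 4 were chosen after their values were seen.

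HIF alpha subunits are stabilised when oxygen is low and act on many glycolytic genes, so that their RNA level need not follow their activity. Hif1a had 127, 121, 161 and 120.4 CPM in MEFs and 57.3, 62.4 and 70.9 in mESCs, with every mESC library below (log2 fold change -1.06, SE 0.167, edgeR adjusted p = 3.96e-04). It shares sequence with Gm15283 on the other strand. Epas1, which encodes HIF-2 alpha, had 3.26, 1.92, 2.90 and 1.75 CPM against 17.3, 19.5 and 15.3, with every mESC library above (log2 fold change 2.81, SE 0.318, edgeR adjusted p = 3.94e-05). Hif1a remained the larger of the pair, at 98.2% ± 0.478 of their counts in MEFs (SD, n = 4) and 78.4% ± 3.34 in mESCs (SD, n = 3; exact permutation test, two-sided p = 0.0286, adjusted 0.0408).

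**Figure D4:**
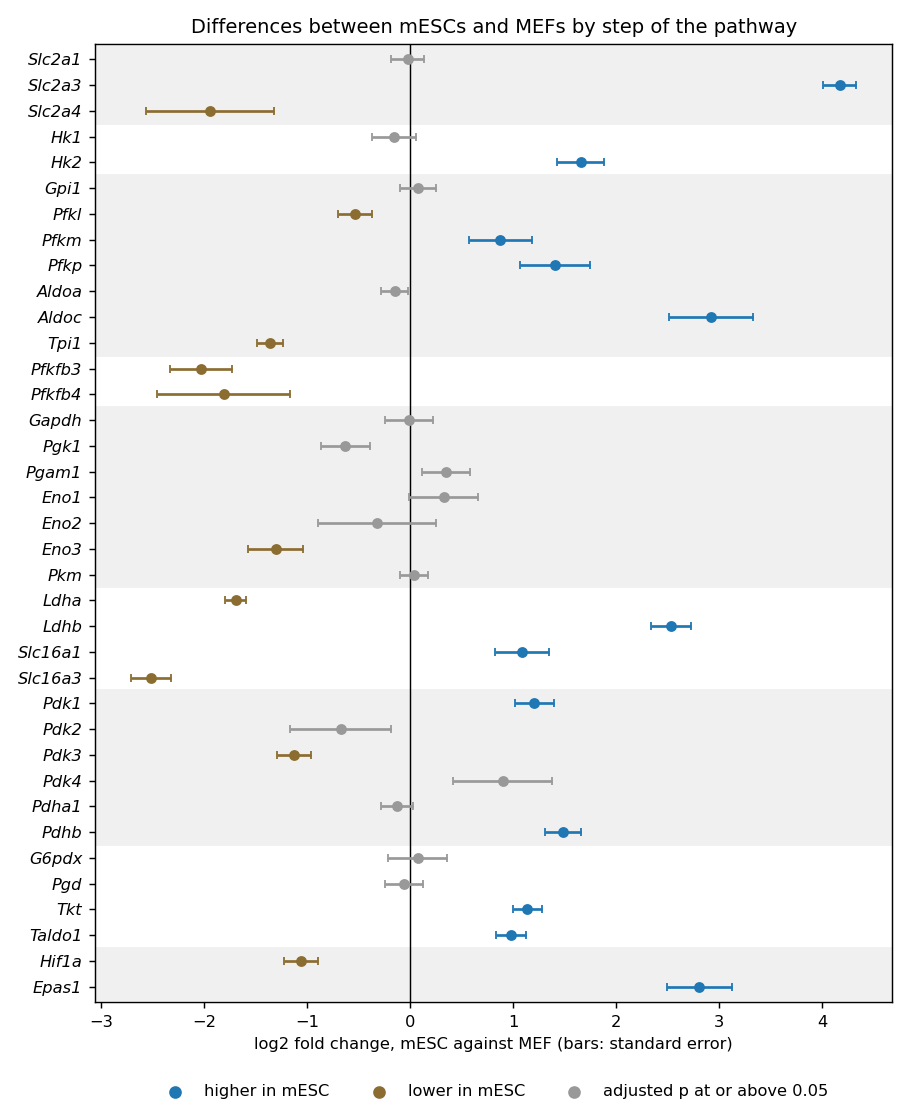
Fitted log2 fold change of the 37 tested members, mESC against MEF (horizontal axis), with standard errors as bars, ordered by step of the pathway in shaded bands; blue is higher and brown lower in mESCs at the 0.05 threshold, grey is not called. Of the 7 genes of lower glycolysis only Eno3 is coloured in this fit, while all 4 genes of lactate production and export are, 2 in each direction.

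A further list of 78 genes of glucose metabolism and the HIF pathway had 58 tested, with 10 higher and 23 lower in mESCs (56.9% against the background of 47.9%) and a median log2 fold change of -0.44, beside 0.04 for all genes tested. Without TMM scaling the calls were 13 higher and 17 lower. Named by the largest changes without overlap, Tigar, which lowers fructose 2,6-bisphosphate, had 18.1, 6.11, 10.1 and 10.2 CPM against 83.5, 80.9 and 88.2 (log2 fold change 2.91, edgeR adjusted p = 2.05e-05). Gpd2, the mitochondrial glycerol 3-phosphate dehydrogenase, had 26.8, 26.5, 30.6 and 26.7 CPM against 113, 78.7 and 114 (log2 fold change 1.88, edgeR adjusted p = 1.01e-05). Both were higher in every mESC library. Pgam2, the muscle phosphoglycerate mutase, had 0, 7, 6 and 4 counts against 25, 60 and 44 (edgeR adjusted p = 0.00702). Pfkfb2 had 3, 9, 0 and 3 counts against 16, 17 and 25 (edgeR adjusted p = 0.0383), a call lost without the MEF libraries of 11441278 (0.0790) or 6528643 (0.0629) and without any one of the mESC libraries of 8193825, 8057985 and 7462710 (0.0761, 0.0817 and 0.137). Lower in mESCs were Adm, a vasodilator peptide and HIF target, with 57.8, 37.99, 63.7 and 32.3 CPM against 1.19, 1.25 and 2.36 (log2 fold change -4.90, edgeR adjusted p = 2.44e-06), and Slc2a10, a glucose transporter family member, with 130, 104, 99 and 71 counts against 0, 1 and 2. Slc16a7, the monocarboxylate transporter MCT2, had 22, 35, 24 and 20 counts against 2, 5 and 0 (edgeR adjusted p = 0.00357). Arnt2, a partner of HIF alpha subunits, had 19, 38, 9 and 30 counts against 1, 5 and 4 (edgeR adjusted p = 0.00718).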

How the data were processed

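RNA-seq gene counts of 4 MEF and 3 mESC samples were analysed. Libraries were primed at the poly(A) tail with molecular identifiers, so counts of transcript ends were compared between genes without division by length. After demultiplexing and trimming, the authors mapped the reads to mm10 (STAR), removed duplicate molecular identifiers (Je) and assigned reads with a unique position to exons (featureCounts). The deposited counts are raw whole numbers. For STAR, the submitters' processing notes give version 2.4.2a, while the methods of the study name another. The annotation release and strand setting are not given in the sources used here, so genes that overlap on opposite strands are uncertain. Beyond the overlaps named above, sequence was shared with genes on the other strand by Slc2a1 (Gm12868), Slc2a3 (Dgka), Hk1 (Hk1os), Gpi1 (Gm26762), Gapdh (Vmn2r60 and Gm47854) and Hif1a (Gm15283). The column names give the cell type but no sample number, so libraries are named by total counts (6528643 to 11441278). Every MEF column name also holds the letter O and every mESC column name the letter Y. These letters are not explained, and what they stand for cannot be told apart from cell type. Among the rows, 26 had a date in place of a symbol and held 0.249% of counts. They stayed in the totals.

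All genes were fitted with edgeR 4.0.16 (limma 3.58.1, R 4.3.3; TMM, filterByExpr, quasi-likelihood test, no covariates), called at 0.05 after Benjamini-Hochberg adjustment, and the code was tested on simulated data. Standard errors are the absolute log2 fold change over the square root of F. Isoenzyme shares were compared by exact permutation tests over the 35 arrangements of 4 and 3 libraries, two-sided. Intervals and the floor of 3 counts cover counting error only. No 2 libraries of a cell type agreed within sampling noise (chi-square of 15.6 to 31.1 per degree of freedom). Gene models are GENCODE M21 on GRCm38, and promoters are RefSeq windows on GRCm38.p6.

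Alternatives were DESeq2 1.42.0, no scaling, DESeq2's size factors, no filter beyond 1 count, 10 counts in each library of either cell type, a fold change of 2, leaving out each library and, for shares, counts per exon length, log2 ratios with 0.5 added and families without low members. Summing near-identical copies was chosen after seeing the data, first with at least 50 shared 50-base sequences and then, after seeing those values, with 100, because 50 takes in Peli2 as a copy of Gapdh. The members and lists were chosen with earlier results of these data known. All members are named. Of the other glucose genes, the 4 largest rises and 4 largest falls among called genes without overlap are named.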

Additional observations from a re-analysis of the deposited data

Results flagged for a closer look

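Among the 4 MEF libraries, 48 sets of values were examined for a single library that stood apart (Dixon's ratio above its 95% critical value), and 4 did, where chance gives about 1 in 20, or 2.4. Eno1 had 74.2 CPM in the library of 11441278 counts, against 26.4 to 30.5 in the other MEF libraries. Hif1a had 161 CPM in the library of 7312679 counts, against 120.4 to 127, still above every mESC library in all 4. Pfkp took 24.9% of phosphofructokinase counts in the library of 9176467 counts, against 13.3% to 14.9%. Fbp1 had 0.120 CPM, which is 1 count, in the library of 9176467 counts and 0 in the other MEF libraries. With 0 in all the others, Dixon's ratio is 1 whatever the count, so this flag says nothing about that library.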

How the results depend on the processing

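No paired analysis was possible because the count columns carry no sample number. Against a fold change of 2, 3991 genes were called, with 6 members higher and 4 lower and 4 other glucose genes higher and 10 lower, by construction of the stricter test. Leaving out one library gave 7032 to 7522 genes, 11 to 12 members higher and 8 to 10 lower, and 8 to 11 other glucose genes higher and 20 to 22 lower. Over the members, 509 alternative log2 fold changes gave the same direction and call in 446, lost a call in 30, gained one in 5 and changed sign in 28. For the 8 other named genes, 95 of 101 kept both and 6 lost the call. All sign changes were in genes without a call, and of these Eno1 gained one, with copies added. Without TMM scaling the values were 0.25 for Slc2a1, 0.12 for Hk1, 0.13 for Aldoa, 0.27 for Gapdh, 0.16 for Pdha1 and 0.23 for Pgd. Gapdh was also 0.0039 with DESeq2, 0.0043 with its size factors, and 0.047 and 0.071 with copies sharing 50 or 100 sequences added. Eno1 was -0.73 with either set of copies added. Pkm was -4.2e-04 without the filter. With one library left out, log2 fold changes ran from -0.15 to 0.086 for Slc2a1, -0.060 to 0.14 for Gpi1, -0.12 to 0.059 for Gapdh, -0.66 to 0.020 for Eno2, -0.12 to 0.14 for Pkm, -0.088 to 0.34 for G6pdx and -0.15 to 0.016 for Pgd. Of the shares, the Hk2 test passed as a log2 ratio (1.85, exact permutation p = 0.0286) and the Eno1 test with counts per exon length (28.1 points, exact permutation p = 0.0286), and the Pfkfb3 difference ran from -7.38 to 5.39 points with one library left out; the cause was not tested. With a MEF library left out, the two-sided exact permutation test cannot go below p = 0.1, and with an mESC library left out not below 0.0667. Those fits therefore say nothing about calls on shares. Depth limits Slc2a4, Pfkfb4, Fbp1, Eno2 and Pdk4, with 0 to 38 counts a library.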
